A study of Mus musculus with 4 samples.

Results

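Enteroendocrine cells are the hormone-secreting cells of the gut epithelium. They are scattered singly among absorptive and mucus-secreting cells, arise from the same crypt stem cells, and store peptide hormones in dense-core granules together with granins, acidic proteins that help to pack and form those granules. A peptide hormone is made as a longer precursor, which convertases cut at neighbouring basic residues inside the granule, and the mixture of hormones an enteroendocrine cell makes changes along the length of the gut and as the cell matures.

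The genes described here are 10 transcripts of this cell type, picked by name: the 2 granins Chga and Chgb, and the 8 hormone genes Gcg, Cck, Gip, Sct, Sst, Tac1, Nts and Ghrl. They were found as non-control probes whose gene name on the array was that of a member, which gave 15 of 41174 probes and 10 of 28090 gene names. All 10 genes were present, and each had a probe well above background in all 8 channels. The study compared crypts freshly isolated from the small intestine of 2 mice with organoids grown from the same crypt preparations for 1 week in Matrigel with EGF, R-spondin and Noggin. Organoids are self-organising epithelial structures that bud crypt-like domains. Each mouse's crypts and organoids were hybridised together on a two-colour 60-mer array, and again with the dyes exchanged, so that 4 arrays on 1 slide measured 2 animals. The mouse strain, sex, age and genotype, and the region of small intestine taken, are not given in the sources used here, and the crypt preparation also gave signal of white blood cell and stroma markers, set out further on. With 2 animals, every p-value of the main fit below rests on the spread between 2 mouse means, moderated over all genes. The number of animals limits its precision. Among the alternative settings, a fit with a random mouse block and a fit with a dye effect were made over the 4 arrays instead.

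Ratios are log2 organoid over crypt, so a negative value is a lower signal in organoids. The array values are given in the order mouse 1 with the organoid in Cy5, mouse 1 with the organoid in Cy3, mouse 2 with the organoid in Cy5 and mouse 2 with the organoid in Cy3. Their mean is over the 2 mice, with the SD between the mice (n = 2), and adjusted p-values are from limma with Benjamini-Hochberg adjustment over 15538 genes. In whole-tissue RNA, fewer cells of a type and less of a transcript per cell cannot be told apart. A brightness is not compared between genes, because probes differ in how strongly they hybridise.

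What an array ratio measures depends on where its probe sits in the transcript, so the probes of 5 hormones are shown here as the array files give them, 5′ to 3′ and in the sense of the transcript, with positions on the mouse build mm9. The Nts probe lies on chromosome 10 from 101944967 to 101945026 on the minus strand. The Tac1 probe spans chromosome 6 from 7507722 to 7509136 on the plus strand. In both, capitals mark pairs of neighbouring lysine or arginine codons, the kind of pair at which precursors are cut.
Nts: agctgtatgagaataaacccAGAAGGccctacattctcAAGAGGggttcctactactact
Tac1: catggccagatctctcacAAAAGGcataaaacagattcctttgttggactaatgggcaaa
The Nts probe covers the neurotensin peptide. Its first capitalised pair lies inside that peptide, and its second follows the end of it. The Tac1 probe covers neurokinin A, with its capitalised pair ahead of the start of that peptide. Such a pair in exactly 1 open forward frame was found in 18.5% of all probes, so its presence is a description of the probe only.

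The Gip probe and both Ghrl probes are shown because, like the Tac1 probe, they span more genome than their 60 bases and so cross at least 1 exon junction. These probes read spliced transcript. The Gip probe spans chromosome 11 from 95886745 to 95887966 on the plus strand. The first Ghrl probe spans chromosome 6 from 113667101 to 113669108 and the second from 113666248 to 113667090, both on the minus strand.
Gip: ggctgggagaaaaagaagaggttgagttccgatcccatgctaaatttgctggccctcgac
Ghrl, first probe: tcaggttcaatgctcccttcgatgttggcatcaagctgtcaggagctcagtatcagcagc
Ghrl, second probe: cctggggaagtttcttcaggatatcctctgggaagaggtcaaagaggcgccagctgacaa
The Sct probe, on chromosome 7 from 148464238 to 148464297 on the minus strand, sits at the far end of the transcript. Its last 30 bases hold the letters AATAAA, capitalised here, as do the last 30 bases of 3.10% of all probes.
Sct, last 30 bases: gttgtccttggcatcAATAAAaaaggaatt

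Of the 10 genes, 1 passed the test, the secretin gene Sct. That share lay near the 10.9% of all 15538 tested genes that passed in either direction (5.43% higher and 5.49% lower in organoids), so the count says nothing particular about these genes. At an unadjusted p under 0.05 there were 4, Sct, Nts, Tac1 and Chgb, where 27.6% of all genes lay under that value. The sign was the same on all 4 arrays for 3 genes, Sct, Nts and Tac1, against 47.1% of all genes, and the same in both mice for 5 genes, against 68.9% of all genes. At least a 2-fold difference in the same direction in both mice was seen for 1 gene, Sct, against 3.92% of all genes. The plot of ratios on each array shows that for Gcg, Cck, Sst and Ghrl the 2 mice went in opposite directions.

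**Figure D1:**
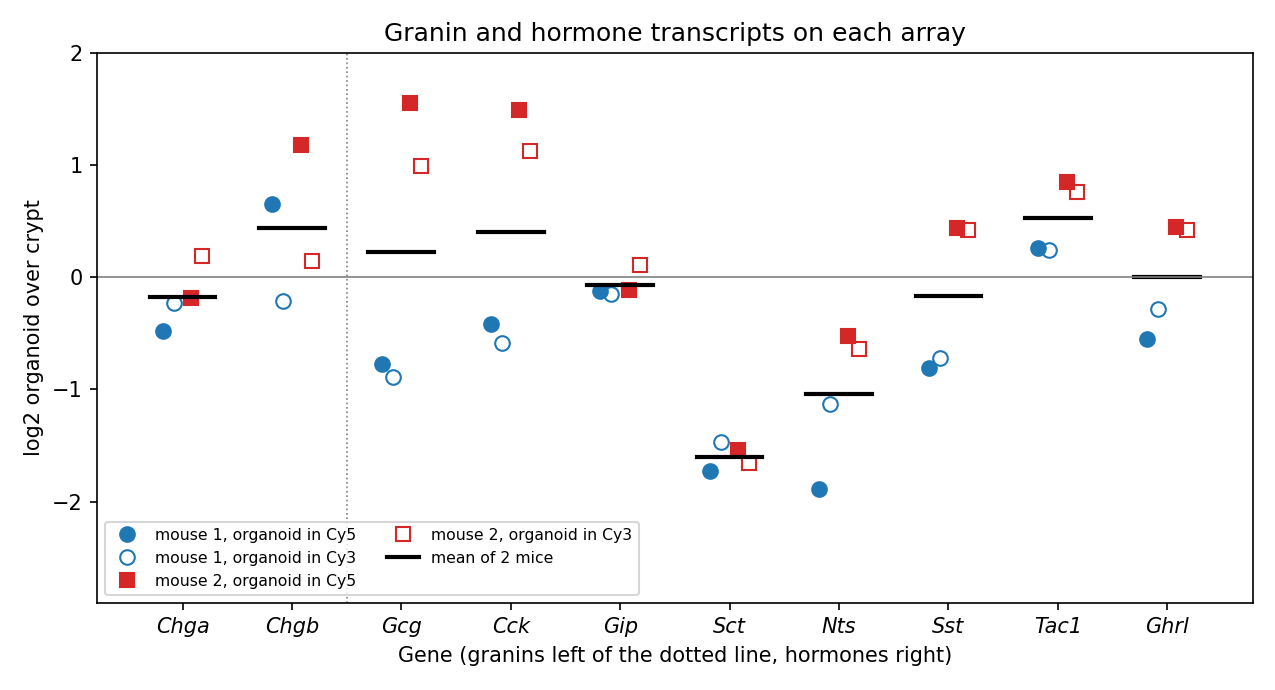
Log2 organoid over crypt (vertical axis) for the 2 granins and 8 hormones on each of the 4 arrays, with circles for mouse 1, squares for mouse 2, filled symbols for the organoid in Cy5, open symbols for the organoid in Cy3, and a bar for the mean of the 2 mice. The 4 Sct values lie together between -1.73 and -1.47, and the Gcg, Cck, Sst and Ghrl values are below 0 in mouse 1 and above 0 in mouse 2.

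Chga encodes chromogranin A, the usual pan-enteroendocrine marker. Its ratios were -0.47, -0.23, -0.19 and 0.19, with a mean of -0.17 ± 0.25 (SD, n = 2 mice) and an adjusted p of 0.526 by limma. Mouse 1 was lower in organoids on both arrays, and mouse 2 averaged 0.004, with its 2 arrays on either side of 0.

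Chgb encodes chromogranin B, the other main granin of these granules. Its ratios were 0.66, -0.21, 1.18 and 0.14, with a mean of 0.44 ± 0.31 (SD, n = 2 mice) and an adjusted p of 0.153 by limma. In both mice the array with the organoid in Cy5 read higher than its dye swap, by 0.86 in mouse 1 and by 1.03 in mouse 2. These gaps between dye orientations were wider than those of 97.3% and 99.0% of all genes. The Chgb probe was saturated in 0 spots and was printed 10 times on each array. The spots left after removal of outlier-marked ones, 7 on the first array and 10 on each of the others, had SDs of 0.020 to 0.051, so the dye orientations differed by far more than the spots within an array. From the arrays with the organoid in Cy5 alone the Chgb mean was 0.92 (adjusted p = 0.0251 by limma), and from the other orientation alone it was -0.03. Over the 16 alternative settings with a test, its adjusted p ran from 0.0251 to 0.930. The size of the Chgb ratio therefore depended on the dye orientation in both mice, and its sign did so in mouse 1. The ratios of Sct, Nts and Tac1 kept their sign in both orientations.

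Gcg encodes proglucagon, the precursor of GLP-1 and GLP-2 in intestinal L cells. Its ratios were -0.77, -0.89, 1.56 and 1.00. Organoids had 1.78-fold less Gcg signal than crypts in mouse 1 and 2.42-fold more in mouse 2. The mean of 0.22 ± 1.49 (SD, n = 2 mice; adjusted p = 0.827 by limma) described neither animal, and its SD between mice was larger than that of 99.9% of all genes.

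Cck encodes cholecystokinin, the I-cell hormone that contracts the gallbladder and stimulates pancreatic enzyme secretion. Its ratios were -0.41, -0.58, 1.50 and 1.13. The organoid signal was 1.41-fold lower than the crypt signal in mouse 1 and 2.48-fold higher in mouse 2. The mean was 0.41 ± 1.28 (SD, n = 2 mice; adjusted p = 0.606 by limma), with an SD larger than that of 99.8% of all genes.

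Sst encodes somatostatin, the inhibitory peptide of D cells. Its ratios were -0.81, -0.72, 0.44 and 0.42. Both arrays of mouse 1 were thus lower and both arrays of mouse 2 higher in organoids, and the mean was -0.17 ± 0.85 (SD, n = 2 mice; adjusted p = 0.778 by limma). Sst and Gcg, like Chgb, were printed 10 times on each array. Single Gcg spots ran from -0.97 to -0.74 over both mouse 1 arrays and from 0.92 to 1.64 over both mouse 2 arrays. Single Sst spots ran from -0.84 to -0.68 and from 0.37 to 0.46. No spot of either gene crossed 0 to the side of the other mouse.

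**Figure D2:**
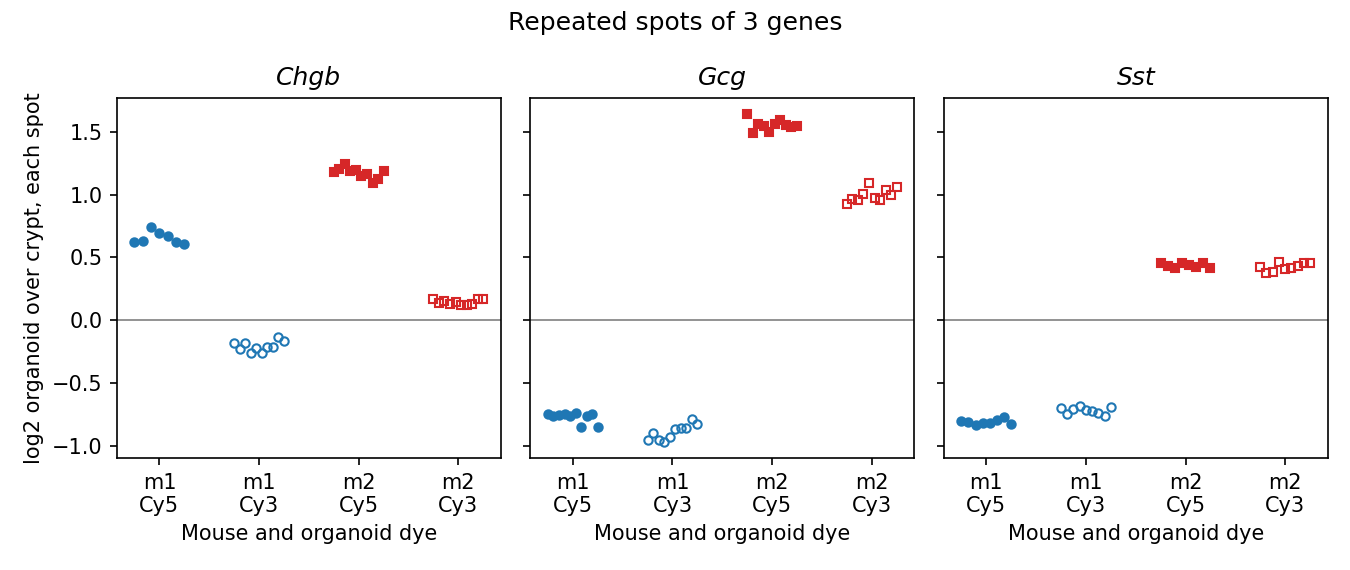
Log2 organoid over crypt (vertical axis) of every unmarked repeated spot of Chgb, Gcg and Sst on each array, labelled by mouse (m1, m2) and by the dye of the organoid. The Chgb spots separate by dye as well as by mouse, whereas the Gcg and Sst spots are all below 0 in mouse 1 and all above 0 in mouse 2.

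Ghrl encodes ghrelin, the appetite-stimulating hormone made mostly in the stomach and to a lesser extent in upper intestinal endocrine cells. Its ratios by the second probe shown above were -0.55, -0.29, 0.44 and 0.42, with a mean of 0.01 ± 0.60 (SD, n = 2 mice; adjusted p = 0.992 by limma). The first probe, across another exon junction, read -0.48, -0.38, 0.53 and 0.32. Both probes gave the same sign on each array, so the split between mice did not rest on a single Ghrl probe. Untested second probes of Chgb, Gcg and Tac1, named from other transcript records, were above background in 0 channels and give no level.

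Gcg, Cck, Sst and Ghrl were thus below 0 on both arrays of mouse 1 and above 0 on both arrays of mouse 2. The same pattern was seen in 1161 of all 15538 genes (7.47%), and the reverse pattern in 1067 (6.87%). For each of these 4 hormones the distance between the mice, 2.11 for Gcg, 1.81 for Cck, 1.20 for Sst and 0.85 for Ghrl, was larger than the distance between the dye swaps of either mouse, of which the widest was 0.56, for Gcg in mouse 2. Whether this is a difference between the animals or between their cultures was not tested, since each mouse gave 1 crypt and 1 organoid RNA.

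Sct encodes secretin, the S-cell hormone that makes the pancreas release bicarbonate. Its ratios were -1.73, -1.47, -1.54 and -1.65, with mouse means of -1.60 and -1.60. Organoids had 3.03-fold less Sct signal than crypts (log2 -1.60, moderated SE 0.13, adjusted p = 0.00413 by limma, lower on 4 of 4 arrays). The SD between mouse means, 0.00058, is smaller than the 0.11 to 0.25 between the dye swaps of a mouse, so it understates the error of the measurement. Of all 15538 genes, Sct was the 195th from the lowest ratio. It kept its call in 15 of 16 alternative settings and lost it with the arrays centred on their medians in place of loess, where its ratio was -1.30 (adjusted p = 0.139 by limma). That setting moved the median of all genes to 0.17, from 0.02, and relative to that median Sct stood at -1.47.

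Nts encodes neurotensin, a peptide of N cells, found mainly in the distal small intestine. Its ratios were -1.88, -1.13, -0.52 and -0.64. All 4 were below 0, and mouse 1 was the lower. The mean was -1.04 ± 0.66 (SD, n = 2 mice), 2.06-fold less in organoids, and missed the threshold with an adjusted p of 0.0586 by limma. It passed in 5 of 16 alternative settings, where its adjusted p by limma ran from 0.0223 to 0.313 over all 16. The lowest value came from the random mouse block over the 4 arrays, and the dye-effect fit over the 4 arrays also passed.

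Tac1 encodes the precursor of substance P and neurokinin A, which enterochromaffin cells make alongside serotonin and which enteric neurons also make. Its ratios were 0.26, 0.25, 0.85 and 0.76, above 0 on every array. The mean was 0.53 ± 0.39 (SD, n = 2 mice; adjusted p = 0.130 by limma, from 0.0391 to 0.427 over 16 alternative settings). It was the hormone with the highest mean ratio and did not pass the test. Of 16 markers of enteric neurons and glia, 5 were measured well enough to test and 0 passed; S100b, a glial marker, read 0.40 ± 0.65 and Ncam1 0.06 ± 0.22 (SD, n = 2 mice). Elavl3, Ret, Prph, Nos1, Hand2 and Gap43, which mark or serve enteric neurons, were above background in 0 of 8 channels. The summed level of the 5 tested markers was 10.5 to 10.8 in crypts and 10.6 to 10.9 in organoids. Summed levels here and below are the log2 of the summed signal of the markers, in which the brightest probes weigh most.

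Gip encodes the glucose-dependent insulinotropic peptide of K cells, in the upper small intestine. Its ratios were -0.13, -0.15, -0.12 and 0.11, with a mean of -0.07 ± 0.10 (SD, n = 2 mice; adjusted p = 0.796 by limma). It was the hormone whose arrays stayed nearest to 0. With median centring in place of loess Gip read 0.21, Chga 0.17 and Sst 0.08, so the signs of these 3 small averages turned with the scaling. Relative to that setting's median of all genes they stood at 0.04, 0.00 and -0.09.

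The channel signals show which tissue the gap between mice came from. After quantile adjustment of the mean intensities of the arrays, Gcg read 10.5 (Cy5) and 10.5 (Cy3) in the organoids of mouse 1 and 12.4 and 12.1 in those of mouse 2 on the log2 scale. Its crypt signal was 11.3 and 11.3 in mouse 1 and 10.9 and 11.1 in mouse 2. The organoids of mouse 2 were therefore 1.81 above those of mouse 1, while its crypts were 0.30 below. Cck behaved alike, with organoids at 12.1 and 11.9 in mouse 1 against 13.5 and 13.3 in mouse 2, and crypts at 12.5 and 12.5 against 12.0 and 12.2. Its organoid gap was 1.39 and its crypt gap -0.42. Over all genes the median absolute gap between mice was 0.17 in organoids and 0.13 in crypts. The organoid gaps of Gcg and Cck were wider than those of 99.9% and 99.7% of genes, and the crypt gaps wider than those of 82.8% and 91.6%.

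In organoids, 9 of the 10 genes read higher in mouse 2 than in mouse 1, where 50.8% of all genes did. The gap was 0.89 for Sst, 0.77 for Ghrl, 0.71 for Nts, 0.70 for Gip, 0.65 for Tac1, 0.59 for Chga and 0.32 for Chgb. Sct was the exception at -0.16. In crypts, 3 of the 10 read higher in mouse 2, where 52.3% of all genes did. The gaps were 0.56 for Gip, 0.24 for Chga and 0.10 for Tac1, and the other gaps lay between -0.42 and -0.08. Gip thus read higher in mouse 2 in both tissues by similar amounts, which is why its ratio hardly differed between the mice. These are differences between 2 animals, with no replicate of either, and carry no test.

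**Figure D3:**
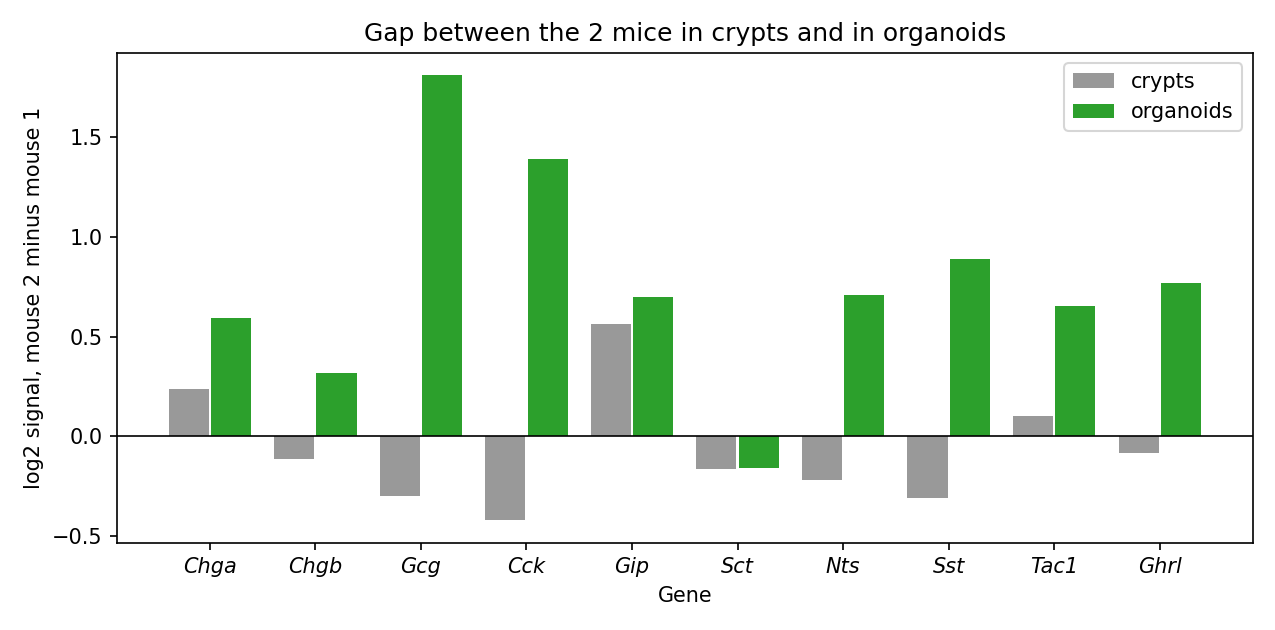
Difference of log2 signal, mouse 2 minus mouse 1 (vertical axis), in crypts (grey bars) and organoids (green bars) for each gene, each bar the mean of the 2 dye orientations. The organoid bars rise to 1.81 for Gcg and are above 0 for every gene except Sct, at -0.16, while the crypt bars run from -0.42 to 0.56.

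Hormones were then set against granins, which mark the granules whatever hormone they hold. The median ratio of the 8 hormones was -0.03, with -0.63 in mouse 1 and 0.43 in mouse 2. That of the 2 granins was 0.13, with -0.06 and 0.33, and that of all genes was 0.02, with 0.01 and 0.03. The hormone median minus the granin median was -0.57 in mouse 1 and 0.10 in mouse 2, so the 2 classes stood in no fixed order. On single arrays it was -0.75 and -0.43 in mouse 1 and -0.05 and 0.25 in mouse 2, the organoid in Cy5 first. The granin median includes Chgb, whose ratio differed widely between dye orientations. Hormones below 0 numbered 7 in mouse 1 and 3 in mouse 2.

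Each hormone was also set against each granin. Sct and Nts had the lowest mean ratios of the 8 hormones and Tac1 the highest. That they lie farther from the granins than the class median does follows from this choice. Sct lay below both granins on all 4 arrays, with mean differences of -1.42 from Chga (range over arrays -1.85 to -1.24) and -2.04 from Chgb (-2.72 to -1.26) on the log2 scale. Nts also lay below both on all 4 arrays, with mean differences of -0.87 from Chga and -1.48 from Chgb. Tac1 lay above Chga on all 4 arrays, by 0.48 to 1.03. It lay above Chgb on the 2 arrays with the organoid in Cy3 and below it on the 2 with the organoid in Cy5. Every difference from Chgb carries the wide gap of Chgb between dye orientations. The remaining hormones lay below Chga on 1 or 2 arrays and below Chgb on 2 or 3. These differences are descriptions with n = 2 mice and carry no p-value.

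The other proteins of the same granules were read from a list of 27 genes for granule cargo, prohormone processing and exocytosis, of which 21 were tested. Of these 0 passed in limma and 3 lay under an unadjusted p of 0.05. Over all genes those shares were 10.9% and 27.6%, against which the counts of this list and of the lists below are to be read. The median ratio was 0.12, with -0.04 in mouse 1 and 0.35 in mouse 2. Scg5, which encodes the 7B2 chaperone of a prohormone convertase, had the largest ratio, at 0.76 ± 0.46 (SD, n = 2 mice; adjusted p = 0.0727 by limma). Rab27a, a GTPase of granule docking, read -0.44 ± 0.02 (adjusted p = 0.0968). In the organoids 17 of the 21 read higher in mouse 2 (81.0%), by a median of 0.24. In the crypts 8 of the 21 did (38.1%), with a median of -0.05. Over all genes the shares were 50.8% in organoids and 52.3% in crypts. The hormones and the granule list thus leaned the same way between the mice, with the wider gaps among the hormones. The lean was not particular to them. In organoids 15 of 19 transcription factors of the lineage, 7 of 9 goblet and Paneth markers and 6 of 6 tuft markers also read higher in mouse 2. Of enterocyte markers 3 of 14 did, and of stem cell markers 2 of 6.

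**Figure D4:**
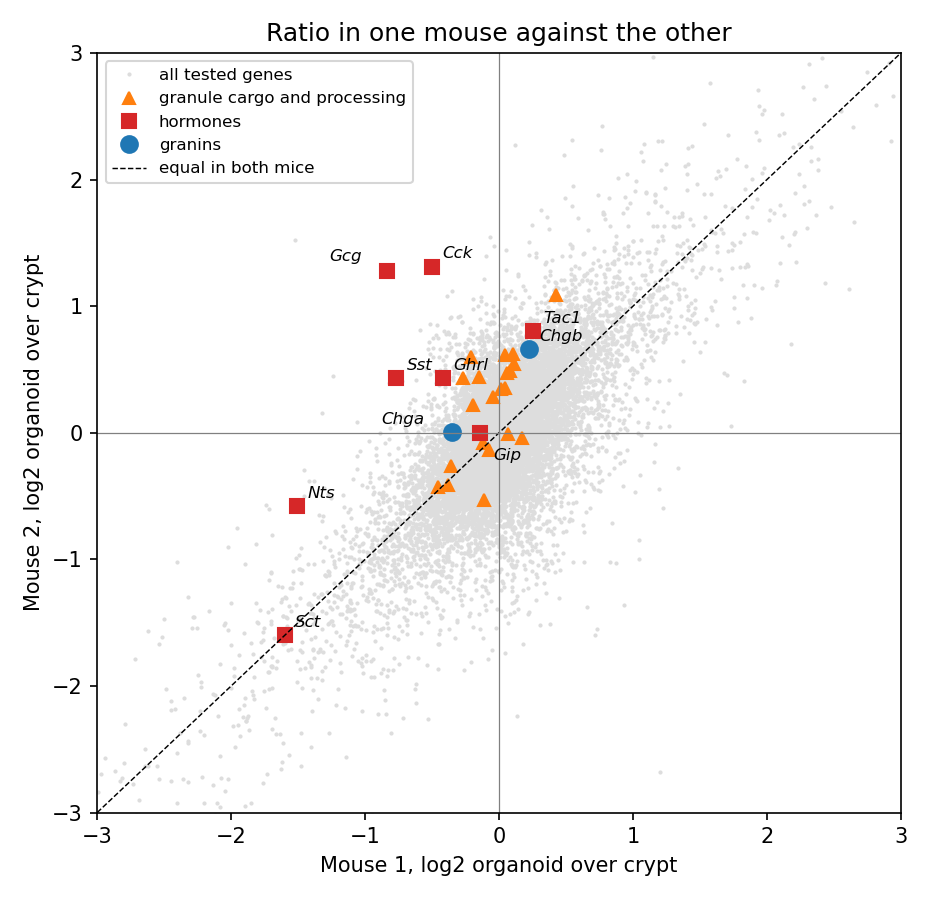
Log2 organoid over crypt in mouse 1 (horizontal axis) and mouse 2 (vertical axis) for all tested genes within 3 of 0 (grey), the 21 granule cargo and processing genes (triangles), the 8 hormones (squares) and the 2 granins (circles), with a dashed line where both mice are equal. Every hormone and granin lies on or above that line, and Gcg and Cck lie farthest from it.

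Other gut peptide genes were largely dim. Of a list of 20, 8 were tested and 0 passed in limma, with 1 under an unadjusted p of 0.05, and the median ratio was 0.04. Ucn3, which encodes urocortin 3, was well above background in 4 organoid channels and 0 crypt channels, at least 1.35-fold brighter in organoids (measured ratio 0.46 ± 0.36, adjusted p = 0.157 by limma). That bound sets its organoid mean against its own crypt signal or, where higher, the dimmest crypt signal that the scanner software still called well above background on that array. Calca, the calcitonin and CGRP gene, read 0.29 ± 0.11. In the serotonin list, 6 of 7 genes were tested and 0 passed in limma, with 1 under an unadjusted p of 0.05. Slc6a4, the serotonin reuptake transporter, was the lowest at -0.87 ± 0.62 (adjusted p = 0.0788). Slc18a1, the vesicular monoamine transporter, read 0.33 ± 0.30, and the median was -0.09.

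Among 24 transcription factors of the enteroendocrine lineage and its precursors, 19 were tested. Of these 2 passed, both higher in organoids, a share near the 10.9% of all tested genes that passed. Foxa2, a forkhead factor of endoderm, rose by 1.10 ± 0.44 (SD, n = 2 mice; adjusted p = 0.0262 by limma), and Sox4, a factor of early progenitors, rose by 0.96 ± 0.19 (adjusted p = 0.0184). Of 16 alternative settings, Foxa2 passed in 11 and Sox4 in 13, with median centring among those that ended both calls (adjusted p = 0.170 and 0.196). The list median was 0.03, with 0.01 in mouse 1 and 0.06 in mouse 2. Neurog3, the factor that commits progenitors to the endocrine fate, read -0.20 ± 0.09 (adjusted p = 0.409) and was named after its value was seen. Neurod1, a marker of this cell type, was above background in 2 crypt and 0 organoid channels and was not tested.

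Of 18 genes by which enteroendocrine cells sense nutrients, 8 were tested and 2 passed, where 10.9% of all tested genes did. Ffar4, a receptor for long-chain fatty acids, rose by 0.79 ± 0.11 (SD, n = 2 mice; adjusted p = 0.0251 by limma). Slc5a1, the sodium-glucose cotransporter SGLT1, which absorptive cells also make, fell by 1.39, with an SD of 0.05 between mice (adjusted p = 0.00568). Of 16 alternative settings, Ffar4 passed in 11 and Slc5a1 in 15, and with median centring neither did (adjusted p = 0.272 and 0.216 by limma). Of 19 receptors for these hormones, 9 were tested. In limma 0 passed, and 0 lay under an unadjusted p of 0.05. Gcgr, the glucagon receptor, read 0.30 ± 0.30, and Gipr, the receptor of the Gip peptide, read 0.17 ± 0.06.

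Other cell types moved between crypts and organoids, and their part in the ratios above was not tested. Enterocyte markers were lower, with 11 of 14 passing (Lct, Cubn, Krt20, Fabp2, Apoa1, Anpep, Apoa4, Vil1, Slc5a1, Alpi and Sis) and a list median of -1.80. Their summed levels were 19.4 to 19.8 in crypts and 17.6 to 18.2 in organoids. Goblet and Paneth cell markers were lower, with 8 of 9 passing (Zg16, Clca1, Lyz1, Ang4, Mmp7, Fcgbp, Agr2 and Muc2, the last in 9 of 16 settings) and summed levels of 19.1 to 19.5 against 16.6 to 17.3. Of 6 stem cell markers, 4 were above 0, with a list median of 0.59 and a lowest ratio of -0.22. Lgr5, Smoc2 and Slc12a2 passed as higher (Slc12a2 in 9 of 16 settings). The summed levels of the 6 were 14.5 to 14.6 in crypts and 15.0 to 15.2 in organoids. Of 10 white blood cell markers, 2 were above 0, and the list median was -0.39. Ccl5, Lyz2 and Cd3g passed as lower, and the summed levels of the 10 were 15.9 to 16.3 against 13.5 to 14.1. Cd3g was well above background in 0 organoid channels and at least 2.00-fold brighter in crypts. Stroma and muscle had 3 of 12 markers tested, of which Acta2 was lower at -0.66 ± 0.01 (a call kept in 8 of 16 settings) and Vim read 0.21 ± 0.34, with summed levels of 13.0 to 13.4 against 12.6 to 12.8, while Dcn, Lum, Des, Pdgfra, Pecam1 and Cdh5 were above background in 0 channels. Untested Col1a1 was above background in 2 crypt and 1 organoid channels, Myh11 in 2 and 2, and Col3a1 in 1 and 0. Tuft cells, another rare epithelial type, had 6 markers tested and 0 passing in limma (0 at an unadjusted p under 0.05). Gfi1b read 0.23 ± 0.29 and Avil -0.20 ± 0.05, and the summed levels were 11.4 to 11.7 in crypts and 11.3 to 11.9 in organoids.

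Because hormones differ along the intestine, markers of position were read as well. Of 10 genes that are higher in the proximal small intestine, Cybrd1, a duodenal ferrireductase, was higher in organoids at 3.08 ± 0.31 (SD, n = 2 mice; adjusted p = 0.00175 by limma). Lct (-4.47 ± 0.06, adjusted p = 0.00121) and Apoa4 (-2.03 ± 0.59, adjusted p = 0.00887) were lower, and both are also enterocyte genes. The median of the 10 was -0.34, with 2 above 0. Of 8 genes that are higher in the distal small intestine, 5 were tested. Cubn, Slc51b, Slc51a and Amn were lower, from -4.19 for Cubn to -0.87 for Amn, whose call was kept in 10 of 16 settings. Cubn is also on the enterocyte list. Untested Slc10a2 was above background in 1 crypt and 3 organoid channels, and Fabp6 in 0 and 1. Between the mice, 0 of the 5 distal genes and 4 of the 10 proximal genes read higher in the organoids of mouse 2. In its crypts 2 of the 5 and 2 of the 10 did. Over all genes the shares were 50.8% in organoids and 52.3% in crypts. Cybrd1, mouse 2 minus mouse 1, was -1.15 in crypts and -1.60 in organoids. Gcg and Nts, hormones of more distal cells, and Cck and Ghrl, of more proximal ones, all read higher in the organoids of mouse 2. Among the 10 genes only Sct read lower there, at -0.16. The part of the region sampled in the difference between mice was not tested.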

How the data were processed

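The 4 scanner files were analysed, each a two-colour Agilent array read with Feature Extraction 10.2.1.3 per the file headers (9.5.3 per the submitters' processing notes). The deposited mean and background intensity values of both channels were corrected with normexp (offset 50) and normalised within arrays by loess in limma 3.58.1 (R 4.3.3), with control spots at weight 0 in the loess; the deposited log10 ratio and the authors' deposited log2 matrix served as alternatives. Outlier-marked spots were dropped, the spots of a probe averaged, and ratios turned to organoid over crypt by the labelled dyes. Testing was limited to 21923 probes. Each kept an unmarked spot on every array and stood well above background throughout the crypt channels or throughout the organoid channels. A gene was read from its brightest tested probe. Arrays were averaged within a mouse and the 2 mouse means tested against 0 with lmFit and eBayes (threshold 0.05). Channel levels came from Aquantile normalisation of the loess values.

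Both dye orientations carry the same mouse numbers in the labels, and same-numbered arrays come from the same animal, so they are paired. The ratios of the 2 arrays of a mouse correlated over genes at r = 0.837 in mouse 1 and 0.850 in mouse 2. Between the mice r was 0.767, taken on the mean of each mouse's 2 arrays and so not a like measure. RefSeq (GRCm38.p6) named 24844 of 41174 probes and matched 11 of the 15 member probes; the others kept the array's names. The 10 genes were always named; from each other list, the genes that passed were named and, where fewer than 2 passed, the 2 of largest absolute ratio. The genes and all lists were chosen with earlier results of these data known. The test was tested on simulated data, where it recovered the direction of every call but made false calls above its nominal rate. RNA was isolated with Trizol per the labels' protocols, while the design text names another kit. Alternatives changed the background correction, the normalisation, the filter, the probe rule, the dye orientation, the arrays used and the treatment of mice. Protein sequences were not used here.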

Additional observations from a re-analysis of the deposited data

How the results depend on the processing

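The number of genes passing over the whole array, 1697, was 224 with median centring, 677 with no filter on dim probes, 908 from the arrays with the organoid in Cy3 alone, and 735 to 2201 with each array left out in turn (lowest without the mouse 1 array with the organoid in Cy5). The number of the 10 genes passing, 1, was 0 with median centring, 3 from the arrays with the organoid in Cy5 alone (Chgb, Sct and Nts), and 1 to 3 with each array left out. It was 3 (Chgb, Sct and Nts) without the mouse 1 array, and 2 (Sct and Nts) without the mouse 2 array, with the organoid in Cy3. With the mouse as a random replicate block over the 4 arrays, an alternative chosen after seeing the data (correlation 0.173), 3080 genes and 3 of the 10 passed (Sct, Tac1 and Nts). With a dye effect and no replicate block, which treats the dye swaps as independent, 3709 genes and 2 of the 10 passed (Sct and Nts). A random block with a dye effect could not be fitted, and a slide block was not run because all 4 arrays share 1 slide. The granin median, 0.13, was 0.54 with median centring. Leaving out a mouse leaves a value with no test: the hormone median was then -0.63 or 0.43, the granin median -0.06 or 0.33, and their difference -0.57 or 0.10. The causes were not tested. Signs held under all 18 alternatives for Sct, Nts and Tac1, under 16 or 17 for Chga, Chgb, Gcg, Cck, Gip and Sst, and under 10 for Ghrl. Apart from leaving out a mouse, every alternative uses both animals, so these counts do not measure agreement between mice. With mouse 2 left out, Gcg, Cck and Ghrl turned to -0.83, -0.50 and -0.42. With mouse 1 left out, Sst turned to 0.43 and Chga to 0.004. Signal over background did not limit the 10 genes, but of the other gut peptides and the receptors listed on the array it left 8 of 18 and 9 of 18 to test.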

Other observations

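The genes whose ratio was highest in mouse 2 relative to mouse 1, listed after their values were seen, placed Gcg 7th and Cck 9th of 15538. The widest gap was that of Dbp, a transcription factor driven by the circadian clock, with ratios of -1.52 in mouse 1 and 1.52 in mouse 2. It differed from the hormones in the tissue concerned: mouse 2 minus mouse 1 was -2.79 in crypts and 0.26 in organoids on the log2 scale. The gap of Prss23, a serine protease, lay mostly in organoids, with ratios of 1.16 and 3.64 and an organoid signal 2.01 higher in mouse 2. Agr3, a secretory-cell disulphide isomerase, had ratios of 0.49 and 2.20 and an organoid gap of 1.31, and Ang4, a Paneth and goblet cell gene, had ratios of -3.28 and -1.80 and an organoid gap of 1.27. Of 14 enterocyte markers, 3 were higher in the organoids of mouse 2, with a median gap of -0.24, and 1 was higher in its crypts, with a median gap of -0.23. All 6 tuft cell markers were higher in the organoids of mouse 2, by a median of 0.42. In its crypts all 6 were higher too, by a median of 0.08. Over all genes, 50.8% were higher in the organoids and 52.3% in the crypts of mouse 2. These gaps are between 2 animals and were not tested.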
